A study of Mus musculus with 4 samples.

Results

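Matrix metalloproteinases (MMPs), ADAMTS proteinases and their tissue inhibitors (TIMPs) were followed in RNA sequencing of mouse sciatic nerve. Members were all rows of the deposited count table whose gene symbol is Mmp, Adamts or Timp followed by a number, leaving out the ADAMTS-like genes. The rule uses names alone and found 46 of 24062 genes: 23 MMP, 19 ADAMTS and 4 TIMP genes. Of these, 34 reached 1 CPM (a gene's share of the library's counts, scaled to a common total with TMM factors) in at least 1 library, 13 MMP, 17 ADAMTS and all 4 TIMP genes, and the results below describe those 34. That level was reached by 14700 of all genes.

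The nerves came from C57BL/6 mice aged 4 months and belonged to 4 genotypes with 1 library each. WT nerves carried neither mutation, and PKO nerves were P2RY14-/-, without the G protein-coupled receptor that binds UDP-glucose. In NF1 nerves (Nf1fl/fl with Dhh Cre) Nf1 was floxed, the gene for the RAS brake neurofibromin, and Dhh Cre is active in the Schwann cell lineage, so that other cells of the nerve keep an unrecombined allele. PKO-NF1 nerves carried both mutations (P2RY14-/- with floxed Nf1 and Dhh Cre). The labels do not say how many animals made up a library, and call the NF1 library a repeat. With 1 library per genotype there was no replicate check on any difference, and each ratio compares 2 libraries.

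MMPs are zinc-dependent endopeptidases, secreted or anchored in the plasma membrane, that cut collagens, basement membrane proteins and signalling molecules outside the cell. ADAMTS enzymes are secreted relatives with thrombospondin repeats whose substrates include the large chondroitin sulphate proteoglycans, procollagens and proteins of the microfibrils. TIMPs block the active site of MMPs, and Timp3 also inhibits several ADAMTS and ADAM enzymes. In peripheral nerve, MMP activity is known for remodelling of basal lamina and for opening of the blood-nerve barrier after injury.

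Total counts ranged from 14111201 (WT) to 20362685 (PKO), and a count of 0 allows a level of up to 3 counts, which is 0.152 to 0.183 CPM depending on the library. P2ry14 was at 37.6 CPM in WT and 65.3 in NF1 against 10.9 in PKO and 10.6 in PKO-NF1. Nf1 was at 72.8 CPM in WT and 63.4 in NF1, and at 41.0 in PKO and 20.5 in PKO-NF1, so gene totals did not set the NF1 library apart from WT. The 12 skeletal muscle markers summed to 50780 CPM in NF1 and to between 110.6 and 856 CPM elsewhere. Taking only the listed muscle, adipocyte and ribosomal protein markers out before scaling altered none of the member counts below. That step changes the scaling alone, so it cannot show what RNA from muscle or fat adds to the member values. The 8 ribosomal protein markers, listed as a sign of RNA quality, summed to 3366 CPM in WT, 24370 (PKO), 6497 (NF1) and 14760 (PKO-NF1). Xist had 9 counts in PKO-NF1, and the Y-linked Ddx3y had none in NF1, so the libraries differed in sex as well as genotype. WT and PKO held transcripts of both sexes, with Xist at 608 and 278 CPM and Ddx3y at 48.0 and 22.3 CPM. In bulk nerve, fewer cells of a type and less RNA per cell cannot be told apart.

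Per kilobase of longest annotated transcript, the highest members were the inhibitors Timp2 and Timp3 and the gelatinase Mmp2. Averaged over the 4 libraries, Timp2 was at 215 CPM per kb, Mmp2 at 165 and Timp3 at 162.5. The next members were several times lower, with the membrane-type Mmp14 at 35.0 CPM per kb, Mmp23 at 21.2, Adamts10 at 19.6, Mmp15 at 18.7 and Timp1 at 17.3. The lowest of the 34 was the macrophage elastase gene Mmp12 at 0.147 CPM per kb. MMP14 activates pro-MMP2 at the cell surface with TIMP2 as a bridge, and the genes of all partners in that complex were among the 4 highest on this scale.

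The 12 members that missed 1 CPM included the 4 collagenase genes, Mmp1a, Mmp1b, Mmp8 and Mmp13. No counts were recorded in any library for Mmp1a, Mmp1b, Mmp7, Mmp10, Mmp20, Mmp21 and Adamts13, which allows up to 0.183 CPM in the library with the highest limit. Adamts13 encodes the protease that trims von Willebrand factor, and the gene of its substrate, Vwf, was at 152 and 187 CPM in WT and PKO and at 29.2 and 55.2 CPM in NF1 and PKO-NF1. Mmp8, Mmp13, Mmp24, Mmp25 and Adamts18 had some counts. Just above the threshold lay Mmp12, with a highest value of 1.63 CPM, Mmp27 (1.65) and Adamts17 (2.12). Just below it lay Mmp25 (0.337), Mmp13 (0.295) and Adamts18 (0.281).

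Of the 34 members, WT held the highest value of 13, PKO of 10, NF1 of 5 and PKO-NF1 of 6. PKO-NF1 held the lowest value of 10 of 17 ADAMTS genes and the highest of none, whereas for 3 of 4 TIMP genes it held the highest value. NF1 held the lowest value of 3 TIMP genes and of 5 of 13 MMP genes. Such extremes were not counted over all genes. The ADAMTS median log2 ratio was -0.62 in PKO-NF1 vs PKO and -0.86 in PKO-NF1 vs NF1. After subtraction of trends over transcript length and GC content, described below, these medians were -0.17 and -0.41. Summed over each family's expressed members, ADAMTS genes came to 631 CPM in WT, 548 (PKO), 487 (NF1) and 346 (PKO-NF1). MMP genes came to 946.5, 1078, 654 and 872 CPM and TIMP genes to 1795, 1853, 1058 and 1713 CPM in the same order of libraries, so both were highest in PKO and lowest in NF1.

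**Figure D1:**
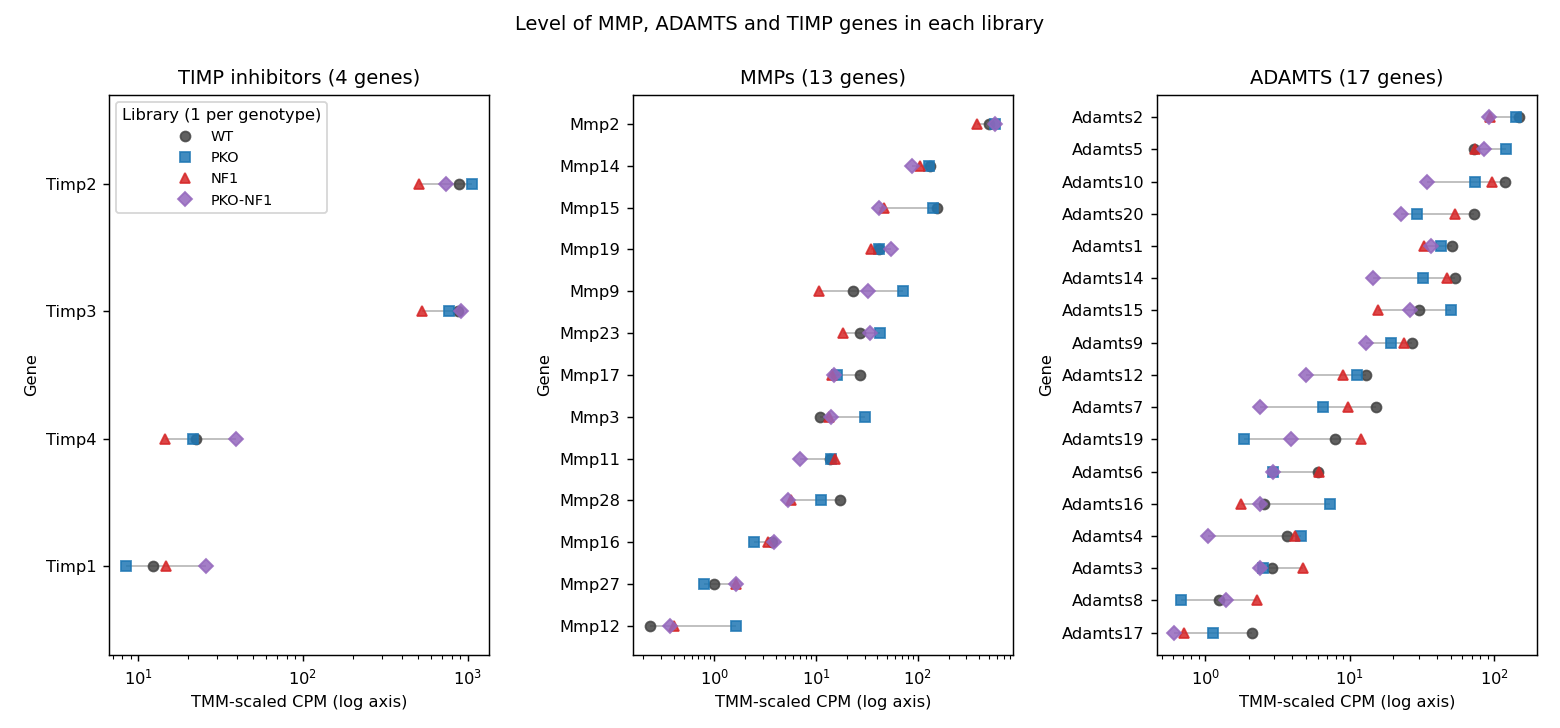
TMM-scaled CPM (log axis) of the 34 expressed members in the 4 libraries, 1 point per library, with genes ordered by mean level within each family and grey lines spanning the lowest to the highest library. PKO-NF1 (diamonds) is lowest for 10 of the 17 ADAMTS genes, a count not made over all genes. Mmp9 runs from 10.7 CPM in NF1 to 71.3 CPM in PKO.

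Differences between libraries were read from ratios of TMM-scaled CPM with an exact conditional 95% interval that covers counting error only. A gene was called higher or lower where the ratio was at least 2-fold and the interval excluded 1. The loss of Nf1 was compared in the NF1 library against WT and in PKO-NF1 against PKO, which share no library. Sex transcripts differed too, with Ddx3y at 0 counts in NF1 (813 in WT) and Xist at 9 in PKO-NF1 (4948 in PKO). Nf1 status and sex therefore cannot be told apart in either pair. In NF1 vs WT, 4 of 34 members were lower (11.8%, against 6.31% of all 14700 genes) and 0 higher (against 10.4% of all genes), and the member median log2 ratio was -0.34, beside 0.00 over all genes. In PKO-NF1 vs PKO, 12 members were lower (35.3%, against 9.70% of all genes) and 3 higher (8.82%, against 5.20%), with a median of -0.53 beside -0.01 over all genes. Lower in both pairs were 3 members, Mmp15, Mmp28 and Mmp9, where 2.60% of all genes were lower in both, and 0 members were higher in both (1.29% of all genes).

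Those counts moved when trends over 2 properties of the transcripts, length and GC content, were subtracted together. The 2 trends were not subtracted separately. Genes in the lowest decile of GC content had median log2 ratios of 0.46 (NF1 vs WT) and 0.55 (PKO-NF1 vs PKO), and genes in the highest decile had -0.41 and -0.59. The expressed members were richer in GC than all genes (median 53.2% against 49.7%) and longer (4.80 kb against 3.35 kb). After smooth trends over length and GC content were subtracted, 2 members were lower (5.88%, against 4.57% of all genes) and 1 higher (2.94%, against 7.74%) in NF1 vs WT, with a median of -0.10. In PKO-NF1 vs PKO, 4 were then lower (11.8%, against 4.46%) and 4 higher (11.8%, against 3.33%), with a median of -0.13. After the subtraction 0 members were lower in both Nf1 pairs (0.815% of all genes). Adamts8 was the 1 member higher in both (0.767% of all genes). Log2 ratios after that subtraction are given for the members described below.

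Mmp15 encodes a membrane-anchored MMP (MT2-MMP) and was the member with the lowest ratio in NF1 vs WT. It lies on chromosome 8 from 95352268 to 95375080, plus strand (ENSMUSG00000031790; GRCm38). Its level was 155 CPM in WT and 141 in PKO, against 46.5 in NF1 and 41.2 in PKO-NF1. Both Nf1-mutant values lay below both others. That order is largely set by the calls in both pairs, and genes with it were not counted over all genes. NF1 vs WT gave a ratio 3.33-fold lower (interval 3.08 to 3.59), and PKO-NF1 vs PKO gave one 3.41-fold lower (3.13 to 3.72). With the trends subtracted the log2 ratios were -1.01 and -0.90, so that only the first remained past 2-fold. Its longest transcript, at 59.6% GC, was the most GC-rich of the 34. The other membrane-type genes differed less in the Nf1 pairs, with Mmp14 at 132 CPM in WT and 128.5 in PKO against 105 in NF1 and 88.0 in PKO-NF1.

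Markers of several cell types were lower in the same pairs as Mmp15. The 10 endothelial markers summed to 706 CPM in WT, 842 (PKO), 297 (NF1) and 506 (PKO-NF1), with 5 of 10 lower in each Nf1 pair (5 and 1 with the trends subtracted) and none of them at 0 in all libraries. The 9 myelinating Schwann cell markers summed to 23670, 34260, 7574 and 17630 CPM in the same order, with 8 (NF1 vs WT) and 5 (PKO-NF1 vs PKO) of them lower, or 6 and 3 with the trends subtracted. The 8 perineurial markers summed to 1069, 1090, 718 and 743.5 CPM, with 2 and 1 of them lower, or 0 and 0 with the trends subtracted. The 8 pericyte and smooth muscle markers summed to 718, 1112, 627 and 972 CPM, with 3 and 2 of them lower both before and after the subtraction. The part of these cell types in the Mmp15 result was not tested.

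Mmp28 (epilysin, a secreted MMP) was at 17.05 CPM in WT and 11.2 in PKO, against 5.73 in NF1 and 5.31 in PKO-NF1. Here too both Nf1-mutant values lay below both others, with the same limit. The ratio in NF1 vs WT was 2.97-fold lower (2.38 to 3.73), and that in PKO-NF1 vs PKO was 2.12-fold lower (1.64 to 2.76). The second log2 ratio was -0.55 with the trends subtracted, under 2-fold. The gene (chromosome 11, 83440768 to 83463071, minus strand) shares 12% of its exon bases with 1700020L24Rik on the opposite strand, and no source used here gives the strandedness of the counting.

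Mmp9, the gelatinase B gene that is strongly linked to inflammation and barrier breakdown, was at 71.3 CPM in PKO and 32.6 in PKO-NF1, against 23.3 in WT and 10.7 in NF1. It was the single member called in all 4 comparisons, low with mutant Nf1 and high without P2ry14. Of the Nf1 pairs, NF1 vs WT gave 2.19-fold lower (1.84 to 2.60), and the double mutant against PKO gave 2.18-fold lower (1.97 to 2.42). Both are close to the threshold and were short of it with the trends subtracted (-0.84 and -0.78). The P2ry14 pairs gave 3.06-fold higher in PKO vs WT (2.73 to 3.43) and 3.06-fold higher in PKO-NF1 vs NF1 (2.61 to 3.61), and both held with the trends subtracted (1.62 and 1.72). Mmp9 lies on chromosome 2 from 164940780 to 164955850, plus strand. Its relative Mmp2, the gelatinase A gene, stayed between 385 CPM (NF1) and 578 CPM (PKO) and was called in none of the 4.

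Non-neural markers were also unequal among these libraries. The 8 adipocyte markers summed to 5909 CPM (WT), 16310 (PKO), 3333 (NF1) and 12260 (PKO-NF1), the same order of libraries from lowest to highest as Mmp9. Mast cell markers summed to 409.8, 1095, 412 and 1006 CPM, macrophage markers to 952, 1329, 882 and 1521 CPM, and neutrophil markers to 2.30, 4.27, 2.49 and 13.7 CPM. Of the 8 ribosomal protein markers, 8 were higher in PKO vs WT and 6 in PKO-NF1 vs NF1, the pairs in which Mmp9 was higher. After the subtraction 8 and 2 of them were higher. The part of these markers in the Mmp9 values, and in those of the ADAMTS genes lower in the same pairs, was not tested.

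**Figure D2:**
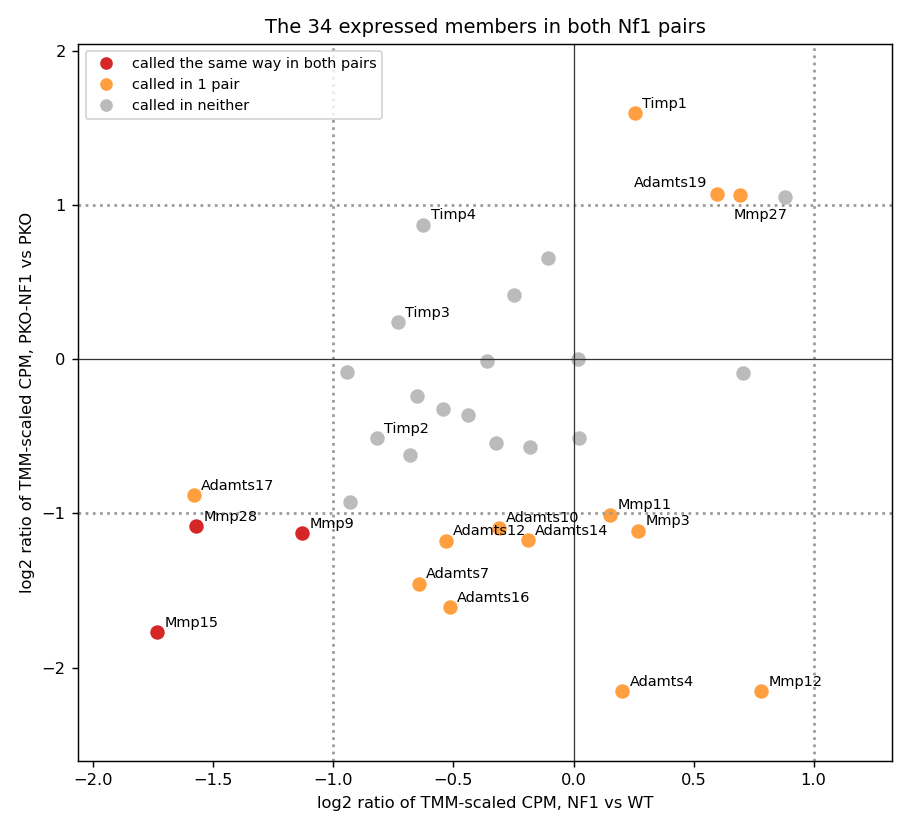
Log2 ratio of TMM-scaled CPM for the 34 expressed members in NF1 vs WT (x axis) and PKO-NF1 vs PKO (y axis), with dotted lines at 2-fold; red points were called the same way in both pairs and orange points in 1 pair. Mmp15, Mmp28 and Mmp9 lie past 2-fold lower in both, and 9 further members lie below the 2-fold line in PKO-NF1 vs PKO alone. After subtraction of length and GC trends, 0 members were called lower in both pairs.

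The fourth member lower in NF1 vs WT, Adamts17, was at 2.12 CPM in WT and 0.710 in NF1 (2.99-fold, 1.57 to 6.00), or -0.98 with the trends subtracted.

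The other 9 members lower in PKO-NF1 vs PKO were 6 ADAMTS genes, Mmp3, Mmp11 and Mmp12. Adamts10, which binds fibrillin microfibrils, was at 119 CPM in WT, 73.5 (PKO), 96.2 (NF1) and 34.5 (PKO-NF1), and its ratio in PKO-NF1 vs PKO was 2.13-fold lower (1.93 to 2.36). Adamts14, a procollagen N-proteinase, was at 53.8, 32.4, 47.1 and 14.4 CPM and 2.25-fold lower (1.93 to 2.63). For both, the double mutant was the lowest library and PKO the next lowest. With the trends subtracted neither stayed past 2-fold, at log2 ratios of -0.41 and -0.30.

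Both genes for enzymes that cleave cartilage oligomeric matrix protein were lower in this comparison. Adamts7 was at 15.2 CPM in WT, 6.52 (PKO), 9.74 (NF1) and 2.38 (PKO-NF1), 2.74-fold lower here (1.89 to 4.05). Adamts12 was at 12.9, 11.3, 8.93 and 5.003 CPM, 2.26-fold lower (1.74 to 2.96). With the trends subtracted the log2 ratios were -0.64 and -0.81, under the threshold for both.

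Adamts16 stood out by its PKO value, at 7.25 CPM against 2.54 in WT, 1.78 in NF1 and 2.38 in PKO-NF1. It was 2.86-fold higher in PKO vs WT (2.01 to 4.14), while PKO-NF1 vs PKO gave 3.05-fold lower (2.12 to 4.48), and both calls held with the trends subtracted (1.81 and -1.12). Both rest on the single PKO library, since the other 3 values lay between 1.78 and 2.54 CPM. Adamts4, an aggrecanase gene below 5 CPM throughout, was low in PKO-NF1 alone, at 1.04 CPM (17 counts) against 3.66 in WT, 4.61 in PKO and 4.21 in NF1. It was 4.45-fold lower than in PKO (2.61 to 7.996) and 4.06-fold lower than in NF1 (2.39 to 7.30), and lower against both also with the trends subtracted (-1.60 against PKO and -1.67 against NF1). Mmp11 (stromelysin-3) had the same shape, at 6.96 CPM in PKO-NF1 and between 13.7 and 15.2 CPM in the other 3 libraries. Its ratio to PKO was 2.01-fold lower (1.61 to 2.54), or -0.75 with the trends subtracted. Of the exon bases of Mmp11, 5.58% lie in exons of Chchd10 on the opposite strand.

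The stromelysin-1 gene Mmp3 was high in PKO, at 30.3 CPM against 11.0 in WT, 13.3 in NF1 and 14.03 in PKO-NF1. It was 2.75-fold higher in PKO vs WT (2.32 to 3.26), which was 0.89 on the log2 scale with the trends subtracted, and 2.16-fold lower in PKO-NF1 vs PKO (1.85 to 2.53), which held at -1.65. Mmp12, at the edge of detection, was likewise high in PKO alone, with 29 counts against 4 in WT, 8 in NF1 and 6 in PKO-NF1. Its ratio in PKO vs WT was 6.91-fold higher with a wide interval of 2.43 to 27.04, and that in PKO-NF1 vs PKO 4.45-fold lower (1.82 to 13.1), both still past 2-fold with the trends subtracted (2.94 and -2.58). All 8 ribosomal protein markers were also higher in PKO vs WT, and their part in the values of Mmp3, Mmp12 and Adamts16 was not tested.

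Mmp3 and Mmp12 belong to a cluster of 10 MMP genes on chromosome 9 (7272514 to 7699585), of which 5 had no counts in any library, 2 had counts under 1 CPM and 3 reached 1 CPM. Their upstream sequences are shown beside that of Mmp15 and of Timp1 because the 8 members with a match to the AP-1 motif, of the 32 that could be searched, all lie in that cluster. Each stretch is 100 bases ending just before the more upstream of the RefSeq and GENCODE starts from RefSeq on GRCm38.p6. Mmp12 has 2 RefSeq starts, and the stretch shown lies before the second, which is inside the annotated gene; the stretch before the first start, at the annotated gene start, held no match to any of the 3 motifs. Capitals mark matches, on either strand, to the AP-1 motif TGANTCA, the GC box GGGCGG or the TATA box TATAAA.
Mmp3 (chr9:7445722-7445821, plus strand): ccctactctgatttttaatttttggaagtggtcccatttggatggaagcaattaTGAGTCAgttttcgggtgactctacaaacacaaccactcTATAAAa
Mmp12 (chr9:7347274-7347373, plus strand): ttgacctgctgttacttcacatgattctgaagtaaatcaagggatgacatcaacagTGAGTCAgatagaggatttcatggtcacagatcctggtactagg
Mmp15 (chr8:95352168-95352267, plus strand): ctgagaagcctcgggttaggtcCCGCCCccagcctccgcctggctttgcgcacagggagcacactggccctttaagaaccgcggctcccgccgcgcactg
Timp1 (chrX:20870066-20870165, plus strand): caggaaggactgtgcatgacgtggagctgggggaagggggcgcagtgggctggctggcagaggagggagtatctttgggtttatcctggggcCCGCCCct

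The Mmp3 stretch and the second Mmp12 stretch each held 1 AP-1 match, whose first base lay 46 and 44 bases before the start, and Mmp3 also a TATA box. The Mmp15 and Timp1 stretches held a GC box and neither of the other motifs, and were 69.0% and 65.0% GC against 38% for Mmp3 and 42.0% for Mmp12. Of the 46 members 32 had an entry in the RefSeq promoter table and were searched, and Mmp2, Mmp9, Adamts6, Adamts7 and Adamts19 were among those not searched. Within 250 bases before the start, TGANTCA was found in 8 of these 32 (Mmp1a, Mmp1b, Mmp3, Mmp7, Mmp10, Mmp12, Mmp13 and Mmp20), all of them in the chromosome 9 cluster, and in 6.7% of all 32851 promoter windows. GGGCGG was found in 16 of the 32, and in 32.7% of all windows. A match is a description of the letters and not a binding site.

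The 3 members higher in PKO-NF1 vs PKO were Timp1, Adamts19 and Mmp27. Timp1, an inducible inhibitor of most secreted MMPs, was at 25.7 CPM in PKO-NF1, against 14.7 in NF1, 12.3 in WT and 8.49 in PKO. The double mutant was highest and PKO lowest, and the ratio was 3.03-fold (2.51 to 3.67; log2 1.46 with the trends subtracted). In NF1 vs WT the ratio was 1.19-fold with an interval of 0.995 to 1.43 that includes 1, and its sign reversed with the trends subtracted (-0.18). In PKO vs WT it was 1.45-fold lower (1.17 to 1.80), which with the trends subtracted passed 2-fold (-1.42). Mmp27 rested on few counts, at 0.787 CPM in PKO and 1.65 in PKO-NF1, and was at 0.33 with the trends subtracted. The Timp1 gene lies on the X chromosome (20870166 to 20874735, plus strand), within Syn1 on the other strand and with none of its exon bases in Syn1 exons. Xist had 10304 counts (WT), 4948 (PKO), 39699 (NF1) and 9 (PKO-NF1), and Ddx3y had 813, 396, 0 and 842 in the same order. The part of sex in the Timp1 values was not tested.

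The other 3 inhibitors were lower in NF1 than in WT by less than 2-fold with TMM scaling. Timp2 was at 889.5 CPM in WT, 1056 (PKO), 505 (NF1) and 741 (PKO-NF1), with NF1 1.76-fold lower than WT (1.72 to 1.81). Timp3 was at 871, 767, 524.5 and 907 CPM, 1.66-fold lower in NF1 (1.62 to 1.70). Timp4 was at 22.5, 21.5, 14.6 and 39.5 CPM, 1.54-fold lower in NF1 (1.32 to 1.80). After the subtraction the log2 ratios in NF1 vs WT were -0.49 (Timp2), -0.61 (Timp3) and -0.38 (Timp4). Scaling by total counts put Timp2 just past the threshold there, at 2.05-fold lower. For these 3 genes NF1 was the lowest of the 4 libraries, and in PKO-NF1 vs PKO Timp2 was 1.43-fold lower while Timp3 and Timp4 were 1.18-fold and 1.83-fold higher (with the trends subtracted Timp4 passed 2-fold, at 1.06). The 8 fibroblast markers summed to 6942 CPM in WT, 9380 (PKO), 7442 (NF1) and 12490 (PKO-NF1), and their part in the TIMP values was not tested. Of the Timp3 exon bases, 21.3% lie in exons of Syn3 on the opposite strand.

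**Figure D3:**
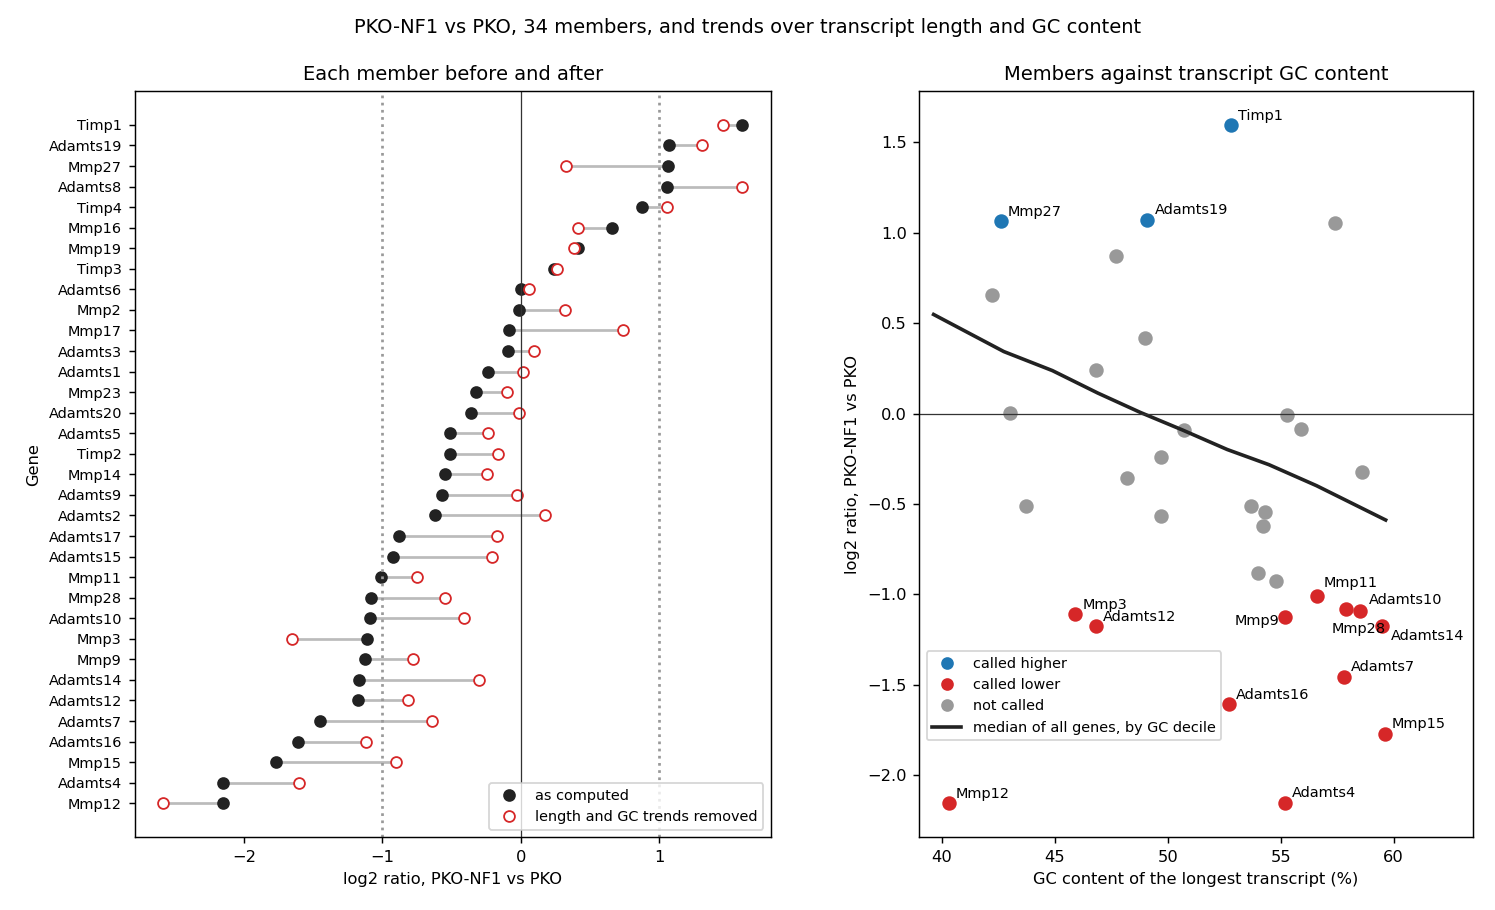
Left, log2 ratio of the 34 expressed members in PKO-NF1 vs PKO as computed (black) and with trends over transcript length and GC content subtracted (open red), with dotted lines at 2-fold. Right, the ratio as computed against GC content of the longest transcript (%), coloured by call, with the median of all genes by GC decile as a line running from 0.55 to -0.59; the count of members called lower falls from 12 to 4 when the trends are subtracted.

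The loss of P2ry14 was compared in PKO against WT and in PKO-NF1 against NF1. Again no library was shared between the pairs, but each library was also used in an Nf1 pair. Xist and Ddx3y had 9 and 842 counts in PKO-NF1, against 39699 and 0 in NF1. In that pair P2ry14 status and sex therefore cannot be told apart. In PKO vs WT, 4 members were higher (11.8%, against 10% of all genes) and 4 lower (11.8%, against 5.22%), with a member median of -0.19 beside -0.08 over all genes. With scaling by total counts instead of TMM the all-gene median was -0.54 and the split was 3 higher (8.82%, against 5.11% of all genes) and 11 lower (32.4%, against 18.6%). In PKO-NF1 vs NF1, 2 were higher (5.88%, against 7.90% of all genes) and 8 lower (23.5%, against 13.8%), with medians of -0.06 and -0.01. Genes in the lowest and highest GC deciles had median log2 ratios of -0.22 and -0.14 in PKO vs WT, and of -0.07 and -0.28 in PKO-NF1 vs NF1. With the trends subtracted, 5 members were higher (14.7%, against 5.64% of all genes) and 2 lower (5.88%, against 5.12%) in PKO vs WT. In PKO-NF1 vs NF1, 3 were then higher (8.82%, against 5.61%) and 6 lower (17.6%, against 10.3%). Member medians after the subtraction were -0.05 in PKO vs WT (-0.08 over all genes) and 0.22 in PKO-NF1 vs NF1 (-0.01 over all genes). The second median thus changed sign. Mmp9 was the 1 member higher in both pairs (2.97% of all genes), and Adamts6, Adamts7, Adamts19 and Adamts20 were the 4 lower in both (2.85% of all genes). After the subtraction Mmp9 and Adamts15 were higher in both (1.18% of all genes), and Adamts19 alone was lower in both (2.41% of all genes).

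Adamts20, a versican-cleaving enzyme known from melanoblast survival, was at 72.9 CPM in WT and 53.7 in NF1, against 29.2 in PKO and 22.8 in PKO-NF1. Both P2ry14-null values lay below both others, an order largely set by the calls in both pairs and not counted over all genes. PKO vs WT gave 2.50-fold lower (2.25 to 2.78) and PKO-NF1 vs NF1 2.36-fold lower (2.10 to 2.66), or -0.96 and -0.81 on the log2 scale with the trends subtracted, just short of 2-fold. The gene lies on chromosome 15 from 94270163 to 94465418, minus strand.

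Adamts19 was at 7.91 CPM in WT and 11.98 in NF1, against 1.86 in PKO and 3.90 in PKO-NF1, so the P2ry14-null libraries were again the lower ones. It was 4.26-fold lower in PKO vs WT (2.89 to 6.44), with 3.07-fold lower for PKO-NF1 vs NF1 (2.32 to 4.11), and was the 1 member called lower in both pairs with the trends subtracted (-1.87 and -1.40). It was also 2.10-fold higher in PKO-NF1 vs PKO (1.36 to 3.31), from 33 counts in PKO and 64 in PKO-NF1. Adamts7 was 2.33-fold lower in PKO vs WT (1.87 to 2.93), with 4.10-fold lower for PKO-NF1 vs NF1 (2.89 to 5.94), of which the second held with the trends subtracted (-0.75 and -1.40). Adamts6, a relative of Adamts10, was at 6.02, 2.92, 6.09 and 2.93 CPM, 2.06-fold lower (1.46 to 2.93) and 2.08-fold lower (1.48 to 2.97), and under 2-fold with the trends subtracted (-0.63 and -0.59).

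Beside Adamts16, Mmp3 and Mmp12, higher in PKO vs WT alone of the P2ry14 pairs, 5 members were called in PKO-NF1 vs NF1 alone, Adamts4 among them. Adamts14 was 3.27-fold lower there (2.83 to 3.79), Adamts10 2.79-fold (2.54 to 3.07) and Mmp11 2.19-fold (1.76 to 2.74), each still past 2-fold with the trends subtracted (-1.03, -1.04 and -1.17). Timp4 was 2.70-fold higher there (2.35 to 3.11; 1.66 with the trends subtracted). Markers of non-myelinating and repair Schwann cells summed to 423 CPM in WT, 238 (PKO), 274 (NF1) and 258 (PKO-NF1). Of their 9 expressed genes 6 were lower in PKO vs WT and 2 in PKO-NF1 vs NF1. Their part in the ADAMTS values was not tested.

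**Figure D4:**
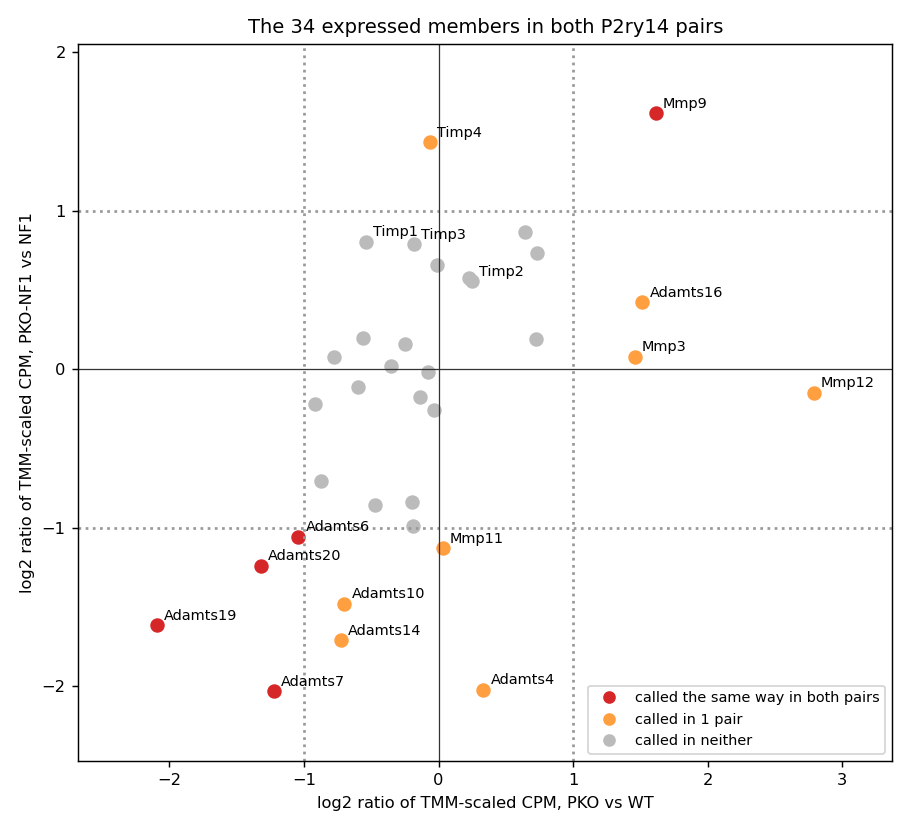
Log2 ratio of TMM-scaled CPM for the 34 expressed members in PKO vs WT (x axis) and PKO-NF1 vs NF1 (y axis), with dotted lines at 2-fold and colours as for the Nf1 pairs. Mmp9 lies alone at 3.06-fold higher in both, and Adamts6, Adamts7, Adamts19 and Adamts20 lie past 2-fold lower in both. After subtraction of length and GC trends, only Adamts19 was still called lower in both.

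The remaining hyalectanase genes, for enzymes that cut versican and aggrecan, were called in none of the 4 comparisons. Adamts5 was at 120.3 CPM in PKO and between 72.8 and 84.6 CPM elsewhere, and with the trends subtracted it passed 2-fold in PKO vs WT (1.24). Adamts8, at most 2.28 CPM, was called in no pair as computed and higher in both Nf1 pairs with the trends subtracted (1.34 and 1.60). Adamts15 ran from 15.8 CPM in NF1 to 50.1 in PKO and was under 2-fold in each pair, but past it in both P2ry14 pairs with the trends subtracted (1.17 and 1.32). Adamts1 and Adamts9 spanned 1.57-fold and 2.06-fold from the lowest to the highest library, and the procollagen N-proteinase gene Adamts2 spanned 1.62-fold, from 92.1 CPM in PKO-NF1 to 149.5 in WT.

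Genes that act on or with these enzymes were taken from lists of fixed membership, whose counts stand beside the shares of all genes given above for each comparison. Of 15 expressed regulators, 3 were lower and 0 higher in NF1 vs WT, and 3 lower and 1 higher in PKO-NF1 vs PKO. Furin, the convertase that removes the propeptide of membrane-type MMPs, Mmp11 and ADAMTS enzymes, was at 71.6 CPM in PKO and 25.5 in PKO-NF1, 2.81-fold lower (2.51 to 3.14), or -0.73 on the log2 scale with the trends subtracted, under 2-fold. In PKO vs WT, 2 regulators were higher, the urokinase gene Plau (37.4 to 82.8 CPM) and the protease trap A2m (37.1 to 82.0 CPM), and 0 lower. Plau was at 0.77 and A2m at 1.29 with the trends subtracted, so that A2m alone stayed past 2-fold. In PKO-NF1 vs NF1, 2 regulators were higher and 2 lower.

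Of the 5 ADAMTS-like genes, which encode matrix proteins without a protease domain, 2 were lower in PKO-NF1 vs PKO, Adamtsl4 (2.43-fold, 2.16 to 2.73) and Adamtsl5 (2.51-fold, 2.29 to 2.75), and none was called in the other 3 comparisons. Both were under 2-fold with the trends subtracted (-0.54 and -0.67), and no ADAMTS-like gene was called in any comparison. Of 9 ADAM sheddases, 1 was lower in NF1 vs WT, and 2 were lower and 1 higher in PKO-NF1 vs PKO. In PKO vs WT 1 of the 9 was lower, and in PKO-NF1 vs NF1 2 were. Subtraction of the trends left 0 sheddases lower in either Nf1 pair and 1 in each P2ry14 pair. Of 13 expressed substrate genes, 6 were lower and none higher in NF1 vs WT, among them the basement membrane collagens Col4a1 (2.12-fold, 2.04 to 2.21) and Col4a2 (2.29-fold, 2.19 to 2.41). In PKO-NF1 vs PKO 3 substrates were lower, Col4a2 among them (2.02-fold, 1.92 to 2.12). Neither collagen was called in the Nf1 pairs once the trends were subtracted, with Col4a1 at -0.34 and -0.02 and Col4a2 at -0.37 and 0.03. In PKO vs WT 1 was higher and 1 lower, and in PKO-NF1 vs NF1 3 were higher and 1 lower. With the trends subtracted, 3 substrates were lower and 1 higher in NF1 vs WT, and none lower and 2 higher in PKO-NF1 vs PKO. The same subtraction gave 11 of 13 substrates higher in PKO-NF1 vs NF1 (against 5.61% of all genes), where 3 were higher as computed. It moved their median log2 ratio from 0.415 to 1.23, so most of these calls rest on the subtraction.

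A model over all 4 libraries, with 1 term for Nf1 status and 1 for P2ry14 status, left 1 residual degree of freedom, the interaction of both. Its p-values therefore measure each term against departure from additivity, which the edgeR test pools over genes. They do not measure a spread between animals, since no group has a second library. The SE given below is the fitted difference divided by the square root of the F statistic. Standard errors from DESeq2 were larger, at 0.35 for Mmp15 (Nf1 term) and 0.38 for Mmp9 (P2ry14 term). With edgeR's quasi-likelihood test and Benjamini-Hochberg adjustment over 14105 genes, the Nf1 term called 0 of 33 members (0% of all genes) and 8 had an unadjusted p under 0.05, as did 20.9% of all genes. For Mmp15 the fitted log2 difference was -1.75 (SE 0.24, edgeR adjusted p = 0.168). The P2ry14 term called 0 of 33 members (0.0496% of all genes) and 10 had an unadjusted p under 0.05, as did 25.2% of all genes. Its fitted log2 difference was 1.61 for Mmp9 (SE 0.21), -1.84 for Adamts19 (SE 0.33) and -1.28 for Adamts20 (SE 0.21), each at an edgeR adjusted p of 0.142. The DESeq2 Wald test called 1 member for Nf1, Mmp15 (2.01% of all genes), and 4 for P2ry14, Mmp9, Adamts7, Adamts19 and Adamts20 (5.10% of all genes).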

How the data were processed

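The data deposited by the authors are raw counts, 1 column per library and 1 line per gene symbol. The tools named per the submitters' processing notes are FastQC 0.11.7, HISAT2 2.0.5 and featureCounts 1.5.2, with the build mm10; no source used here gives the annotation or strandedness. Libraries were made with a TruSeq kit from 1 ug of RNA, per the labels' protocols.

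Counts were scaled with edgeR 4.0.16 TMM factors. Ratios carry exact conditional (Clopper-Pearson) 95% intervals; no molecular identifiers are named, so amplified copies can count more than once. Trends were natural cubic splines with 4 degrees of freedom in log10 length and in GC content of the longest GENCODE M21 (GRCm38) transcript, found for 98.5% of symbols. The additive model used glmQLFit on genes at 1 CPM in 2 or more libraries, with DESeq2 1.42.0 as alternative. Scripts were run on simulated counts with less spread than these data, whose fitted coefficient of variation was 0.27. That run says nothing about how reliable the calls are.

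Members and lists were chosen with earlier results of these data known. The genes named were the TIMPs, members called at 5 CPM or more in 1 of the 2 libraries, the 8 most abundant per kb, and members called the same way in both pairs; other names were added by their role or values.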

Additional observations from a re-analysis of the deposited data

How the results depend on the processing

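Scaling with DESeq2 size factors and dropping the 1 CPM filter each kept every pairwise count of members within 1.5 times its value. So did removing the listed muscle, adipocyte and ribosomal protein markers, which changes the scaling alone. Scaling by total counts moved the median of all genes to -0.22 in NF1 vs WT, -0.54 in PKO vs WT and -0.18 in PKO-NF1 vs NF1, and gave 7 members lower instead of 4 in NF1 vs WT (20.6%, against 10.8% of all genes) and 11 instead of 4 in PKO vs WT (32.4%, against 18.6%). A 1.5-fold threshold gave 3 higher (8.82%, against 19.2% of all genes) and 12 lower (35.3%, against 16.7%) in NF1 vs WT, and 5 higher in PKO-NF1 vs PKO (14.7%, against 15.6%). It gave 7 higher (20.6%, against 16.2%) and 9 lower (26.5%, against 15.3%) in PKO vs WT, and 7 higher in PKO-NF1 vs NF1 (20.6%, against 20%). Subtracting the length and GC trends gave 1 higher and 2 lower in NF1 vs WT, 4 lower in PKO-NF1 vs PKO and 2 lower in PKO vs WT. Of 31 calls among 17 named members, 16 were kept under that subtraction and 29 under total counts, and none changed sign. The 2 calls lost under total counts were Mmp3 in PKO vs WT (log2 1.00) and Mmp11 in PKO-NF1 vs PKO (log2 -0.93).

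For the model, where edgeR called 0 members, the Nf1 term called 1 of 33 members with DESeq2 (2.01% of all genes). By total counts it called 4 of 32 (7.79% of all genes). The P2ry14 term called 4 of 33 with DESeq2 (5.1% of all genes) and 8 of 32 by total counts (18.7% of all genes). Without the expression filter it called 1 of 39, Mmp9 (0.582% of all genes). Fits with 1 term and each library left out in turn keep a single library in 1 group. Members called in those fits are therefore not counted here. The cause of the differences between settings was not tested. No paired analysis was possible because each genotype has 1 library. With 1 library per genotype, depth limits the ratios of members under 5 CPM most, such as Mmp12 and Adamts4.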
